A study of Mus musculus with 22 samples.

Results

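The genes described here are 60 genes of mitosis and chromosome segregation, measured in bone marrow-derived macrophages (BMDM) of mice with and without LPS. They are a list of symbols with roles in cell division, drawn up with earlier results of these data known, and were found on the array by the RefSeq accession of each probe. They fall into 10 roles, from CDK1 and its cyclins to condensin, and they are 60 of 22384 genes tested. All 60 had a probe that passed the filter on dim signal, which asks for a spot well above its local background on at least 3 of the 22 arrays, whatever their group, so that a gene could pass through its medium arrays alone. Of the 60, 41 were well above background on all 22 arrays and 19 on 5 to 21 of them.

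Cells enter mitosis when CDK1, bound to cyclin A or B, becomes active, and the genes needed for it are transcribed together late in the cell cycle under FOXM1 and B-MYB. Kinetochores then bind the spindle, the spindle checkpoint delays anaphase until every chromosome is attached, and the anaphase-promoting complex (APC/C) with CDC20 destroys securin and cyclin B so that sister chromatids part. Macrophages grown from bone marrow divide in response to M-CSF, and LPS is known to halt that division. MK2 and MK3 are kinases that p38 MAPK activates in LPS-treated macrophages.

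Total RNA of each sample was labelled with Cy3 and hybridised to 1 Agilent array, and the study asked how the response to LPS changes when MK2, or MK2 and MK3, are missing. The 6 groups were wild-type (wt) BMDM in medium (n = 4) and with LPS (n = 3), BMDM lacking MK2 (MK2-/-) in medium (n = 4) and with LPS (n = 4), and BMDM lacking both kinases (MK2/3-/-) in medium (n = 3) and with LPS (n = 4). All donors were labelled as male C57BL/6 mice of 10 to 14 weeks, all marrow had been grown for 9 days with M-CSF at 10 ng/ml, per the methods the cells spent the last hour before the experiment without M-CSF, and LPS was given at 100 ng/ml for 360 min against medium alone for the same time. The sources used here do not say which part of either gene is deleted or whether each array came from a mouse of its own, so the p-values measure the spread between these samples.

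Signals are given as log2 of the processed spot intensity after quantile normalisation, and a difference is in log2 units, so that -1 is a fall to 50% of the signal. A gene is called higher or lower where limma's moderated test over all 22 arrays gave a Benjamini-Hochberg adjusted p below 0.05 across the 22384 genes. Levels are compared between arrays for the same probe and never between probes. The median signal of an array before normalisation ran from 32.7 to 107.8, and 61.7% to 83.0% of spots were well above background. The 7 tested macrophage markers, among them Adgre1 and Csf1r (the M-CSF receptor), were well above background on all 22 arrays. Mapkapk2, the gene of MK2, ran from 10.8 to 12.4 in wt medium against 8.70 to 9.01 in MK2-/- medium and 8.34 to 8.50 in MK2/3-/- medium, and Mapkapk3, the gene of MK3, ran from 12.4 to 13.4 in wt and MK2-/- medium against 10.9 to 11.4 in MK2/3-/- medium. With LPS, Mapkapk2 ran from 14.3 to 15.3 in wt, from 11.2 to 11.9 in MK2-/- and from 10.9 to 11.2 in MK2/3-/-. Its signal was thus present in the knockouts and higher with LPS. Mapkapk3 with LPS ran from 11.9 to 12.6 in wt and MK2-/- and from 7.65 to 8.55 in MK2/3-/-. Both MK2-/- replicate 3 arrays went against the male label, with mean signals of Y-linked genes of 2.33 in medium and 2.07 under LPS against 6.86 to 8.82 on the other 20 arrays. Counts that moved without these 2 arrays are given with and without them. The 3 genotypes were hybridised on 3 slides, 1 for each, so that a direct comparison of genotypes cannot be told apart from one of slides. LPS was compared with medium within a slide.

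In wt BMDM, 49 of the 60 genes were lower with LPS, 2 were higher and 9 did not pass the test. Of all genes tested, 23.5% were called lower and 18.6% higher. Genes that fell included Ccnf, Aspm, Kif23, Espl1 and Nek2, with differences of -4.52, -4.59, -4.11, -3.96 and -3.77, and the median over the 60 was -2.32 against -0.04 over all genes. In MK2-/- BMDM, 50 were lower, 1 was higher and 9 did not pass, with a median of -3.57, where 27.1% of all genes were lower and 17.5% higher. In MK2/3-/- BMDM, 49 were lower, 2 were higher and 9 did not pass, with a median of -3.28, where 27.9% of all genes were lower and 20.2% higher. The standard errors of these differences ran from 0.15 to 0.93 over the 60 genes and 3 genotypes.

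All LPS arrays lay below all medium arrays for 54 genes in wt (26.7% of all genes did so), for 45 in MK2-/- (24.4%) and for 49 in MK2/3-/- (28.8%). Of the 60 genes, 45 were lower in all 3 genotypes, against 19.7% of all genes. Only Pttg1 was higher in all 3, against 12.5% of all genes. Plk4, Mad2l1, Ube2c, Spc24, Kif4 and Ckap2l passed the test in no genotype. Scaling each array to its 75th percentile instead made 60.5%, 53.6% and 54.1% of the called genes higher in wt, MK2-/- and MK2/3-/-, where quantile normalisation gave 44.2%, 39.2% and 42.0%. The median over the 60 genes was then -2.41, -3.25 and -2.96. Under that scaling Stmn1 was no longer called lower in any genotype, nor Mki67 in wt and MK2/3-/-, Cenpf, Smc4 and Ncapg in MK2-/-, or Cdc25c in MK2/3-/-. In bulk RNA, fewer cells of a type and less RNA per cell cannot be told apart.

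The summed signal of some marker lists of other cell types moved with the treatment too, while their genes moved in both directions. The log2 summed signal of 5 tested progenitor and mast cell markers, 2 of them well above background on all arrays, ran from 12.8 to 15.2 in medium and from 10.7 to 12.9 with LPS, and in wt 1 of the 5 was lower, Cd34 at -2.15, and 1 higher, Kit at 1.48. That of 5 B cell markers, 2 of them well above background on all arrays, ran from 9.03 to 10.5 in medium and from 7.91 to 8.79 with LPS, and in wt 1 was lower, Cd79b at -2.62, and 1 higher, Cd79a at 0.76. The part of these lists in the fall of the mitotic genes was not tested. Of the 7 macrophage markers, 3 were lower and 2 higher in wt, among them Csf1r at -1.05, Cd14 at 1.56 and Fcgr1 at 1.67. Over all genotypes, the ranges of the T cell, neutrophil, erythroid and fibroblast lists overlapped between treatments, while within wt the T cell list ran from 11.8 to 12.1 in medium and from 12.4 to 12.5 with LPS.

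The level of the whole set on an array was summarised as the median, over the 60 genes, of the signal minus the gene's mean in wt medium. In wt medium it was 0.06, -0.31, -0.18 and 0.40 on the 4 arrays, and with LPS -1.94, -2.84 and -1.96 on the 3. In MK2-/- medium it was 1.30, -0.56, 0.23 and -1.17, and with LPS -2.85, -4.20, -3.33 and -3.70. In MK2/3-/- medium it was -1.25, -0.47 and 0.16, and with LPS -4.45, -4.38, -3.35 and -2.85. Every LPS array thus lay below every medium array of any genotype. The medium arrays of MK2-/- were spread most, from replicate 4 as the lowest to replicate 1 as the highest.

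**Figure D1:**
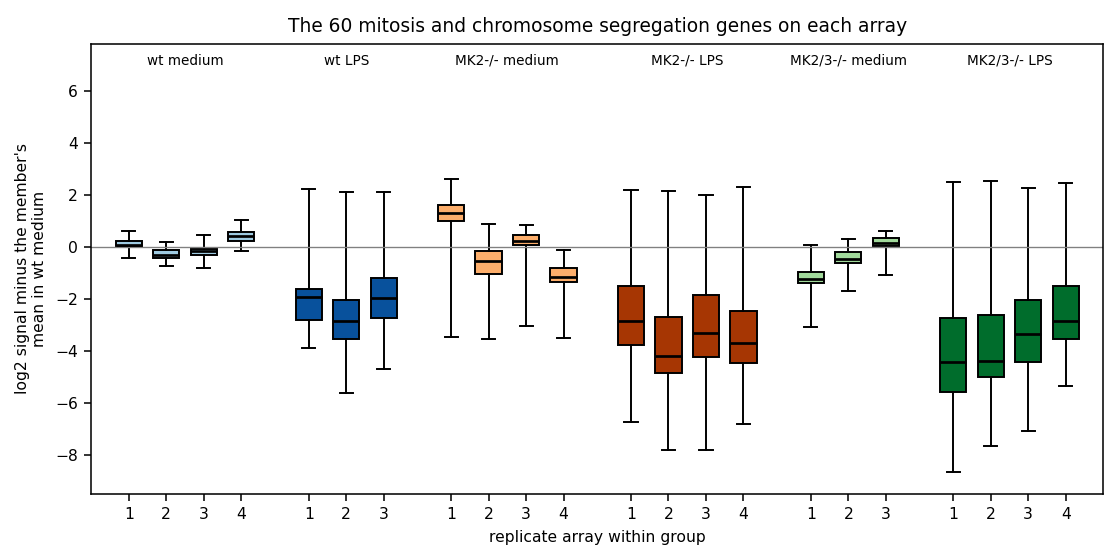
Box plots of the 60 genes on each of the 22 arrays, as log2 signal minus the gene's mean in wt medium on the y axis, with arrays grouped by genotype and treatment on the x axis (line, median; box, quartiles; whiskers, lowest and highest gene). The array medians lie between -1.25 and 1.30 in medium and between -4.45 and -1.94 with LPS.

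The genes varied together among arrays of the same group. After each group's mean was removed, the median correlation between 2 of the 60 genes was 0.901 over the 11 medium arrays and 0.547 over the 11 LPS arrays (1770 pairs of genes, which share arrays and their scaling). In medium, Pttg1 had the lowest median correlation to the others, 0.137, followed by Aurkb with 0.490. On LPS arrays Tpx2 had the lowest, -0.601 against 0.918 in medium, followed by Pttg1 with -0.124 and Aurkb with 0.0556.

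**Figure D2:**
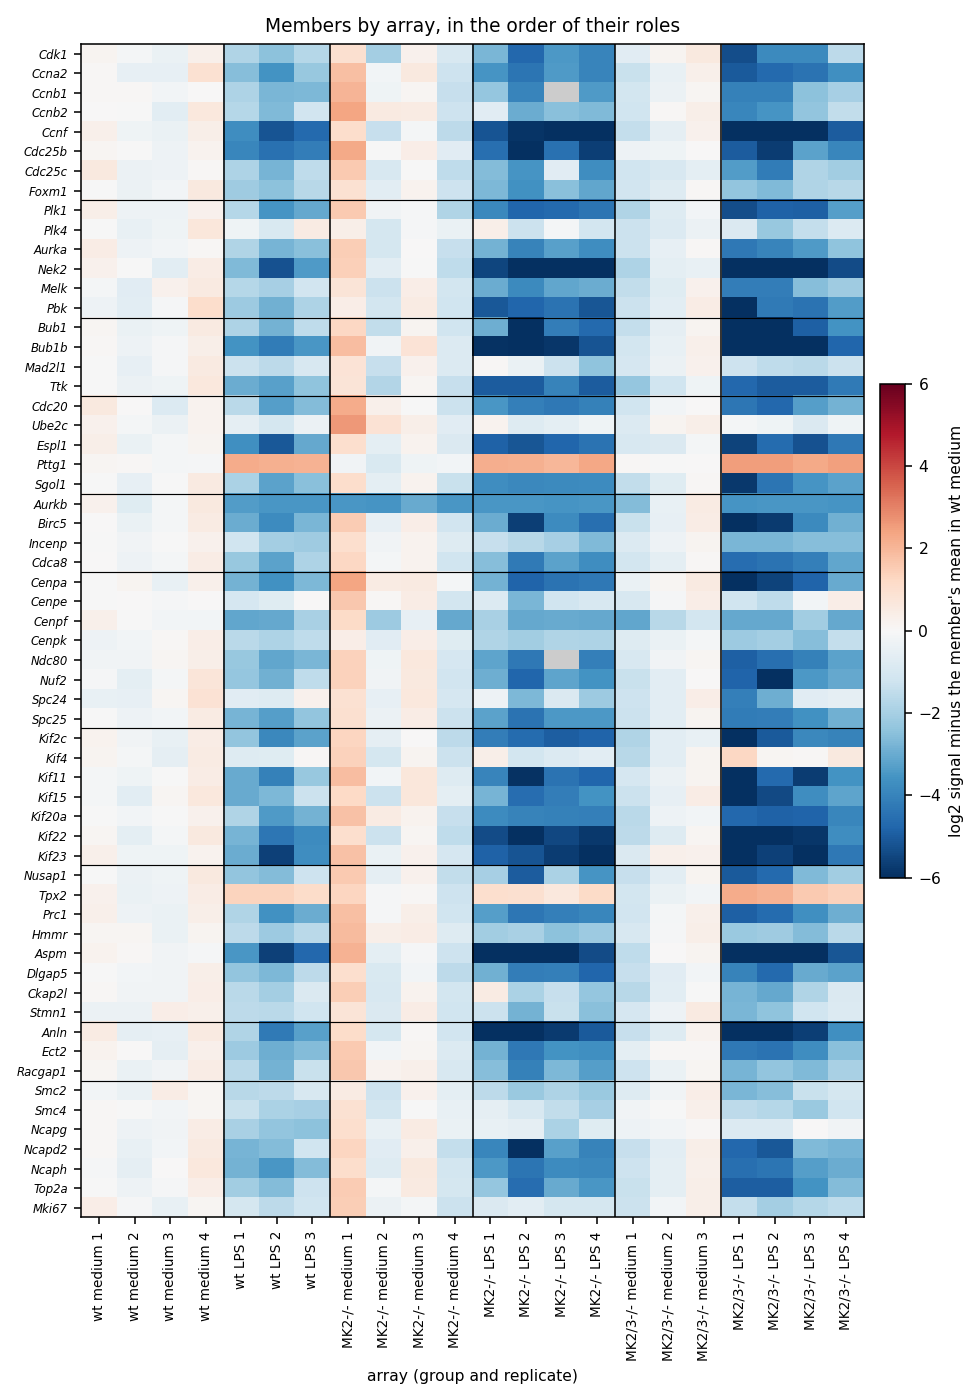
Heat map of the 60 genes (y axis, ordered by role, with lines between roles) on the 22 arrays (x axis, by group and replicate), with colour showing log2 signal minus the gene's mean in wt medium and grey marking outlier spots. Most rows turn blue on the LPS arrays of all 3 genotypes, whereas Pttg1 turns red on all 11.

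Because most of these genes moved together, their promoters were read for the sequence elements through which late cell cycle genes are known to be controlled. These are the CCAAT box, bound by NF-Y, and the cell cycle genes homology region (CHR), bound by the MuvB core of the DREAM and FOXM1 complexes. RefSeq promoters (assembly GRCm38.p6, 250 bases before to 50 after the start) were matched for 48 of the 60 genes, with 52 entries. CCAAT on either strand was present in 40 of the 52 entries (76.9%) against 37.4% of all 32851 promoters, and TTTGAA or TTCGAA on either strand, the CHR, in 38 (73.1%) against 19.2%. Both were present in 34 (65.4%) against 7.52% of all promoters. An E2F word, TTTCCCGC or TTTGGCGC on either strand, was present in 3 (5.77%) against 1.56%. Each start of a match was counted, so that overlapping matches count separately. The 53 CHR matches had a median position 15 bases before the start, and 25 of them lay across or after it. The 86 CCAAT matches had a median position of -67.5.

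By call, 36 of the 45 genes lower in all 3 genotypes had an entry, of which 27 held CCAAT, 28 the CHR, 24 both and 5 neither. Those with neither were Nuf2, Nusap1, Ncaph, Melk and Birc5. Of the 7 genes lower in 1 or 2 genotypes, 6 had an entry, of which 6 held CCAAT, 5 the CHR, 5 both and 0 neither. Of the 8 genes lower in no genotype, 6 had an entry. Ube2c, Kif4 and Ckap2l held both elements, and Pttg1, Plk4 and Mad2l1 held neither. These are counts of letters in a window and no measure of binding. The 150 bases before the start are printed below, 5′ to 3′ on the strand of the gene, with CCAAT and CHR letters in capitals. Top2a, Cdk1 and Cdc20 are shown as genes that were lower in all 3 genotypes and hold both elements. Mki67 holds both, and the probe that stood for it was lower in wt and MK2/3-/- only. Ube2c is shown as a gene that holds both and whose probe passed the test in no genotype. Pttg1, Plk4 and Mad2l1 are the genes that were lower in no genotype and hold neither. The genes that were lower in all 3 genotypes and hold neither are not printed.
Top2a, chr11:99024190-99024339, minus strand: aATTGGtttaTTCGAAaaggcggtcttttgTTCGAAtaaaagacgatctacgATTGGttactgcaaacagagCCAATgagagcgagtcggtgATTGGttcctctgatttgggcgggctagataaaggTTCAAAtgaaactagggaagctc
Cdk1, chr10:69352913-69353062, minus strand: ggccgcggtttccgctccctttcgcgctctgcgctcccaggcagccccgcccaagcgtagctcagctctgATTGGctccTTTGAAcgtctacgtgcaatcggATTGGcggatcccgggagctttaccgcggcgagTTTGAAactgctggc
Cdc20, chr4:118437344-118437493, minus strand: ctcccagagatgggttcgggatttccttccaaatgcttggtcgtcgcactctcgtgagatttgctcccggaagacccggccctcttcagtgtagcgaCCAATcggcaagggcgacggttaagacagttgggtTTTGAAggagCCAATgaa
Mki67, chr7:135716380-135716529, minus strand: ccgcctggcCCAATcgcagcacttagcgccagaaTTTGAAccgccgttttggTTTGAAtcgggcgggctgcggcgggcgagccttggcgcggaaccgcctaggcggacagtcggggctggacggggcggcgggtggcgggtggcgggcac
Ube2c, chr2:164769779-164769928, plus strand: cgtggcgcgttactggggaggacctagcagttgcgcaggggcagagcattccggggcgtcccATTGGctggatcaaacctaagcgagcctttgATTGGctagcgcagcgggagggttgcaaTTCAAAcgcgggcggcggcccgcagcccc
Pttg1, chr11:43425982-43426131, minus strand: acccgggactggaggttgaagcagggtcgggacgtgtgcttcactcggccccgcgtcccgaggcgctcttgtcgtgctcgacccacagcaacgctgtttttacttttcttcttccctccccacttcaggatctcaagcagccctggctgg
Plk4, chr3:40799801-40799950, plus strand: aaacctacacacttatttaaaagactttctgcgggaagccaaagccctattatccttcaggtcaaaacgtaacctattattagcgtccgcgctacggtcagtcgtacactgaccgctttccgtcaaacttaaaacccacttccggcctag
Mad2l1, chr6:66535071-66535220, plus strand: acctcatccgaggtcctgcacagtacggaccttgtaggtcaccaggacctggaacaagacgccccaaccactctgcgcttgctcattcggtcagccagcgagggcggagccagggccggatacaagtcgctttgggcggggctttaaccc

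Among CDK1, its cyclins and their regulators, 7 of 8 genes were lower with LPS in wt and all 8 in both knockout genotypes, with differences from -4.52 to -1.83 in wt. Ccnf (cyclin F, NM_007634), the substrate receptor of an SCF ubiquitin ligase that turns over late cell cycle proteins, had the largest t of the group. Readings are log2 signals in the order of the replicates, with medium given before LPS. In wt it read 11.54, 10.99, 10.86 and 11.61 in medium and 7.54, 6.07 and 6.60 with LPS. In MK2-/- it was 12.33, 9.85, 11.12 and 9.69 against 6.09, 5.38, 5.03 and 5.25, and in MK2/3-/- 9.81, 10.73 and 11.50 against 3.63, 4.81, 4.92 and 6.27. All LPS arrays were low and none overlapped the medium arrays of its genotype. The difference was -4.52 in wt (SE 0.61, adjusted p = 8.39e-06), -5.31 in MK2-/- (SE 0.57, adjusted p = 2.48e-07) and -5.77 in MK2/3-/- (SE 0.61, adjusted p = 2.37e-07).

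Cdk1 (NM_007659), the kinase itself, read 10.94, 10.66, 10.38 and 11.08 in wt medium and 8.94, 8.31 and 9.06 with LPS. In MK2-/- it read 11.74, 8.74, 11.03 and 9.83 in medium and 8.04, 6.06, 7.33 and 6.78 with LPS, and in MK2/3-/- 10.08, 10.94 and 11.37 against 5.45, 6.92, 6.96 and 9.18. The groups of a genotype did not overlap, although MK2/3-/- LPS replicate 4 stood within 1 log2 unit of the lowest medium array. Cdk1 fell by 2.00 in wt, by 3.28 in MK2-/- and by 3.67 in MK2/3-/- (SE 0.71, 0.66 and 0.71, adjusted p = 0.0308, 0.000401 and 0.000274). Its 3 probes disagreed. A second probe gave -0.69, 0.39 and 0.63 and passed the test in no genotype, and the remaining probe gave -1.98, -2.13 and -4.60 and passed in all 3.

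Ccnb2 (cyclin B2, NM_007630), a partner of CDK1, read 12.55, 12.48, 11.85 and 13.14 in wt medium and 10.81, 9.84 and 11.37 with LPS. The MK2-/- arrays read 14.86, 13.06, 12.99 and 11.25 in medium and 11.82, 9.52, 9.99 and 9.84 with LPS, and the MK2/3-/- arrays 11.30, 12.56 and 12.86 against 8.60, 8.99, 10.15 and 11.03. LPS arrays lay below medium arrays in wt and MK2/3-/-, while in MK2-/- LPS replicate 1 stood above medium replicate 4. The difference missed the threshold in wt and passed it in both knockouts, at -1.83 in wt (SE 0.73, adjusted p = 0.0519), -2.75 in MK2-/- (SE 0.68, adjusted p = 0.00245) and -2.54 in MK2/3-/- (SE 0.73, adjusted p = 0.00728). Foxm1 (NM_008021), the transcription factor of G2 and M phase genes, read 9.60, 9.23, 9.42 and 10.17 in wt medium and 7.47, 7.15 and 7.92 with LPS. It read 10.50, 8.99, 9.80 and 8.35 against 6.91, 5.99, 7.08 and 6.48 in MK2-/-, and 8.45, 8.84 and 9.68 against 7.24, 6.98, 7.82 and 7.94 in MK2/3-/-. The LPS arrays were again the low ones without overlap, with differences of -2.09 in wt (SE 0.43, adjusted p = 0.000637), -2.79 in MK2-/- (SE 0.40, adjusted p = 9.3e-06) and -1.50 in MK2/3-/- (SE 0.43, adjusted p = 0.00710). For Foxm1 a second probe gave -1.48, -1.65 and -0.85 and did not pass in MK2/3-/- (adjusted p = 0.00378, 0.000622 and 0.0713). The other 4 genes were lower in all 3 genotypes. Ccna2 (cyclin A2) differed by -2.80, -4.06 and -3.95 in wt, MK2-/- and MK2/3-/-, and Ccnb1 (cyclin B1) by -2.42, -3.36 and -2.68, where the outlier spot of MK2-/- LPS replicate 3 was left out. Cdc25b and Cdc25c, phosphatases that activate CDK1, differed by -4.18, -5.72 and -4.25 and by -2.06, -2.40 and -1.93.

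Of the 6 mitotic kinases other than CDK1, 5 were lower with LPS in each genotype. Nek2 (NM_010892), a centrosome kinase that helps to separate the spindle poles, read 9.04, 8.75, 8.17 and 9.22 in wt medium and 6.14, 3.56 and 5.38 with LPS. The MK2-/- arrays read 10.24, 8.16, 8.78 and 7.29 in medium and 3.28, 2.01, 2.02 and 2.03 with LPS, and the MK2/3-/- arrays 6.94, 8.20 and 8.36 against 1.99, 2.02, 2.01 and 3.44. No LPS array of either knockout was well above background, so that the fall has only a bound, the bright group's mean against the higher, on each array, of the faintest signal well above background and the probe's own. Nek2 was at least 34.6-fold lower in MK2-/- and at least 17.7-fold lower in MK2/3-/- (adjusted p = 4.86e-08 and 8.04e-07). In wt, with 2 of 3 LPS arrays well above background, it fell by 3.77 (SE 0.64, adjusted p = 9.68e-05).

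Plk4 (NM_011495), the kinase that starts centriole duplication, had the smallest t of the kinases. It read 7.12, 6.70, 6.86 and 7.83 in wt medium and 6.87, 6.20 and 7.61 with LPS, 7.50, 6.06, 7.07 and 6.73 against 7.49, 5.86, 7.03 and 6.03 in MK2-/-, and 5.85, 6.31 and 6.76 against 6.25, 4.86, 5.68 and 6.31 in MK2/3-/-. Medium and LPS arrays overlapped in every genotype, and the differences were -0.23 in wt (SE 0.46, adjusted p = 0.729), -0.24 in MK2-/- (SE 0.43, adjusted p = 0.698) and -0.53 in MK2/3-/- (SE 0.46, adjusted p = 0.377). The other 4 kinases were lower in all 3 genotypes. Plk1, which acts from centrosome maturation to cytokinesis, differed by -2.78, -4.29 and -3.67, and Aurka (Aurora A), which builds the spindle poles, by -2.37, -3.23 and -2.94. Melk, a kinase of the AMPK family, and Pbk, a MAPKK-like kinase, both raised in dividing cells, differed by -1.61, -2.92 and -2.59 and by -2.30, -4.50 and -4.62.

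In the spindle checkpoint, 2 of 4 genes were lower in wt and 3 of 4 in each knockout. Bub1b (BubR1, NM_009773), part of the mitotic checkpoint complex that inhibits APC/C, read 10.29, 9.92, 10.15 and 10.58 in wt medium and 6.66, 6.04 and 6.72 with LPS. The MK2-/- arrays read 12.08, 10.02, 11.07 and 9.43 against 4.32, 3.73, 4.39 and 5.08, and the MK2/3-/- arrays 9.15, 9.78 and 10.53 against 3.74, 3.24, 4.25 and 5.47. The gap between treatments exceeded the spread within them in each genotype, and the differences were -3.76 in wt (SE 0.55, adjusted p = 1.87e-05), -6.27 in MK2-/- (SE 0.51, adjusted p = 6.89e-09) and -5.65 in MK2/3-/- (SE 0.55, adjusted p = 7.77e-08). Bub1 (NM_009772), the kinase that recruits other checkpoint proteins to kinetochores, read 9.50, 9.00, 9.15 and 9.92 in wt medium and 7.55, 6.54 and 7.88 with LPS. In MK2-/- it read 10.62, 7.90, 9.55 and 8.20 against 6.46, 2.89, 5.25 and 4.72, and in MK2/3-/- 7.97, 8.85 and 9.56 against 2.26, 2.47, 4.50 and 5.79. No arrays overlapped between treatments, yet the wt difference missed the threshold, with -2.07 in wt (SE 0.85, adjusted p = 0.0577), -4.24 in MK2-/- (SE 0.79, adjusted p = 0.000177) and -5.04 in MK2/3-/- (SE 0.85, adjusted p = 6.17e-05). Ttk (MPS1), which starts checkpoint signalling, was lower in all 3, at -2.89 in wt, -4.18 in MK2-/- and at least 4.19-fold in MK2/3-/-, where no LPS array was well above background. In MK2-/-, 1 of the 4 Ttk readings with LPS was well above background. Mad2l1 (MAD2), which holds CDC20 in the checkpoint complex, passed in none, with -1.28, -0.72 and -1.05 and adjusted p = 0.0537, 0.244 and 0.102. Of its other 2 probes, 1 was lower in wt and the other in MK2/3-/-.

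The genes of anaphase onset split by direction, with 3 of 5 lower, 1 higher and 1 not called in each genotype. Pttg1 (securin, NM_013917), the inhibitor of separase that APC/C destroys at anaphase, was the gene that rose. It read 13.48, 13.45, 13.28 and 13.33 in wt medium and 15.59, 15.51 and 15.49 with LPS, 13.16, 12.47, 13.14 and 13.24 against 15.57, 15.54, 15.39 and 15.69 in MK2-/-, and 13.47, 13.34 and 13.40 against 15.89, 15.90, 15.64 and 15.85 in MK2/3-/-. Every LPS array stood above every medium array, whatever the genotype. The differences were 2.14 in wt (SE 0.16, adjusted p = 8.31e-09), 2.55 in MK2-/- (SE 0.15, adjusted p = 1.63e-10) and 2.42 in MK2/3-/- (SE 0.16, adjusted p = 9.32e-10), which is a rise of 4.41-fold, 5.84-fold and 5.34-fold. A second Pttg1 probe rose by 2.42, 2.64 and 3.03.

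Espl1 (separase), the protease that cuts cohesin and is held by securin, was lower, at -3.96, -4.73 and -4.27. Cdc20, the activator through which APC/C recognises securin, differed by -2.52, -4.28 and -3.34, and Sgol1 (shugoshin 1), which protects cohesin at centromeres until anaphase, by -2.54, -3.65 and -3.51. Ube2c (NM_026785), the ubiquitin-conjugating enzyme of APC/C, read 11.57, 11.20, 10.97 and 11.53 in wt medium and 10.76, 10.24 and 10.94 with LPS. It read 13.91, 12.20, 11.69 and 10.64 against 11.54, 10.55, 10.75 and 11.06 in MK2-/-, and 10.47, 11.48 and 11.66 against 11.22, 11.04, 10.46 and 11.08 in MK2/3-/-. The treatments overlapped in both knockouts but not in wt, and no difference passed, at -0.67 in wt (SE 0.51, adjusted p = 0.313), -1.14 in MK2-/- (SE 0.47, adjusted p = 0.0562) and -0.26 in MK2/3-/- (SE 0.51, adjusted p = 0.719). A second Ube2c probe gave -1.90 in wt (adjusted p = 0.0623) and fell by 2.72 in MK2-/- and by 2.90 in MK2/3-/-, so that the absence of a call depends on the probe.

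**Figure D3:**
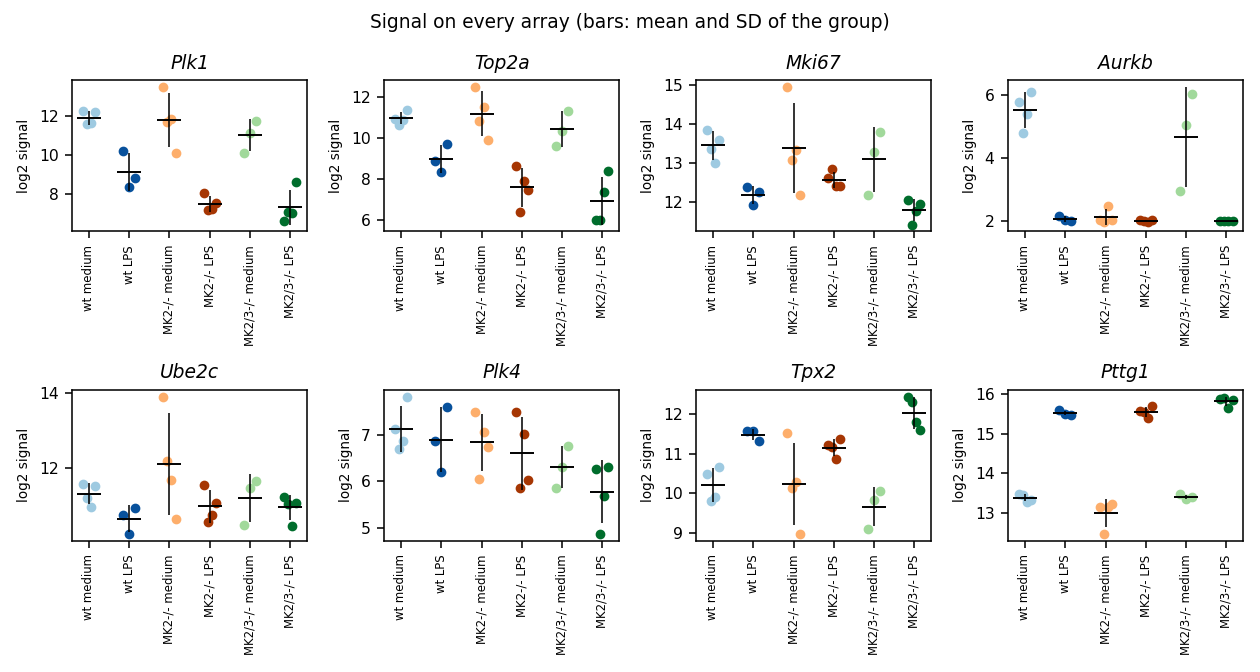
Log2 signal of 8 genes on every array (points; y axis in log2 units, not starting at 0 and differing between panels) in the 6 groups (x axis), with the group mean and SD in black. Plk1 and Top2a lie lower with LPS in all genotypes, Pttg1 lies higher on all 11 LPS arrays, and Aurkb lies at background, at most 2.49, on all MK2-/- arrays.

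All 4 genes of the chromosomal passenger complex, which corrects faulty attachments and guides cytokinesis, were lower in wt and in MK2/3-/-, and 3 of them in MK2-/-. Aurkb (Aurora B, NM_011496), its kinase, read 5.78, 4.79, 5.40 and 6.12 in wt medium and 2.17, 2.03 and 2.01 with LPS. It read 2.94, 5.05 and 6.03 in MK2/3-/- medium and 1.99, 2.02, 2.01 and 1.99 with LPS. In MK2-/- it read 2.03, 1.99, 2.49 and 2.03 in medium and 2.03, 2.01, 1.99 and 2.03 with LPS. It was not well above background on any MK2-/- array, in medium as with LPS, and was at least 4.19-fold lower with LPS in wt (adjusted p = 5.49e-06) and at least 1.98-fold lower in MK2/3-/- (adjusted p = 6.2e-05). Birc5 (survivin, NM_001012273), which brings the complex to centromeres, had the reading 14.49, 14.08, 14.33 and 14.96 in wt medium and 11.47, 10.68 and 11.74 with LPS. In MK2-/- it was 15.97, 13.98, 14.84 and 13.32 against 11.49, 8.83, 10.67 and 9.94, and in MK2/3-/- 13.14, 13.99 and 14.92 against 8.08, 8.72, 10.64 and 11.59. Medium arrays were above LPS arrays throughout, and the differences were -3.17 in wt (SE 0.77, adjusted p = 0.00255), -4.30 in MK2-/- (SE 0.71, adjusted p = 5.13e-05) and -4.26 in MK2/3-/- (SE 0.77, adjusted p = 0.000123). The scaffold Incenp and the subunit Cdca8 (borealin) were lower in all 3, at -1.77, -1.97 and -2.33 and at -2.44, -3.46 and -3.52.

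At the centromere and kinetochore, 6 of 8 genes were lower in wt, 7 in MK2-/- and 5 in MK2/3-/-. Spc25 and Spc24 are partners in the NDC80 complex, which binds microtubules, and stood at opposite ends of the group in t. Spc25 (NM_001199123) read 13.11, 12.85, 12.99 and 13.64 in wt medium and 10.35, 9.86 and 10.76 with LPS, 14.11, 12.80, 13.60 and 11.85 against 9.95, 8.72, 9.70 and 9.68 in MK2-/-, and 11.85, 12.52 and 13.32 against 8.97, 9.02, 9.52 and 10.26 in MK2/3-/-. It was low on every LPS array without overlap, with differences of -2.82 in wt (SE 0.47, adjusted p = 8.15e-05), -3.57 in MK2-/- (SE 0.44, adjusted p = 1.4e-06) and -3.13 in MK2/3-/- (SE 0.47, adjusted p = 1.77e-05). Spc24 (NM_026282) read 8.79, 8.72, 9.33 and 10.08 in wt medium and 8.56, 8.46 and 9.49 with LPS, 10.12, 8.74, 9.88 and 8.20 against 8.93, 6.53, 8.36 and 7.04 in MK2-/-, and 7.97, 8.59 and 9.62 against 5.12, 6.30, 8.55 and 8.67 in MK2/3-/-. Its treatments overlapped in all 3 genotypes and no difference passed, at -0.39 in wt (SE 0.77, adjusted p = 0.730), -1.52 in MK2-/- (SE 0.71, adjusted p = 0.0927) and -1.56 in MK2/3-/- (SE 0.77, adjusted p = 0.105). Their responses were not tested against each other.

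The remaining NDC80 subunits Ndc80 and Nuf2 were lower in all 3 genotypes, at -2.70, -4.03 and -3.83 and at -2.26, -3.76 and -3.80. The Ndc80 spot of MK2-/- LPS replicate 3 was an outlier spot and was left out. Cenpa, the histone H3 variant that marks centromeres, differed by -3.05, -4.92 and -4.96, and Cenpk, a subunit of the inner kinetochore, by -1.67, -1.73 and -1.64. Cenpe, a kinesin that carries chromosomes to the spindle equator, was lower in MK2-/- alone, with -0.57, -1.70 and -0.43 and adjusted p = 0.455, 0.0119 and 0.579. Cenpf, a large protein of the outer kinetochore, was well above background on 5 medium arrays and no LPS array. It was at least 3.09-fold lower in wt and at least 1.34-fold lower in MK2-/-, and was above background in neither treatment in MK2/3-/-.

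**Figure D4:**
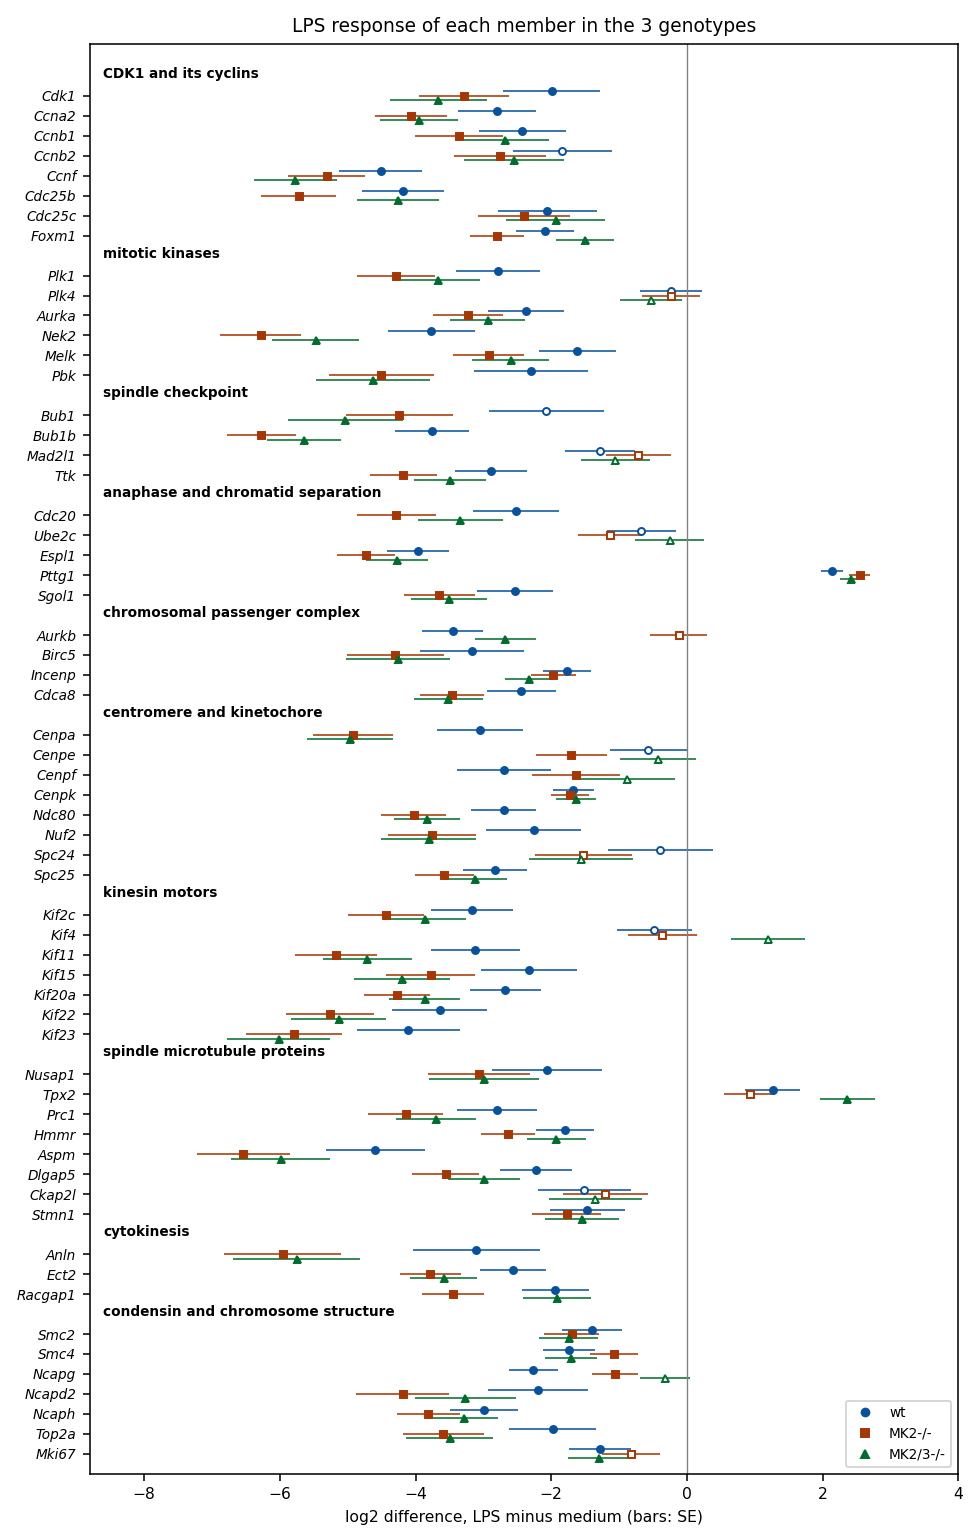
Log2 difference, LPS minus medium, of each of the 60 genes (y axis, grouped by role) in wt, MK2-/- and MK2/3-/- (symbols), with bars for the SE and filled symbols for adjusted p below 0.05. Most filled symbols lie left of 0, Pttg1 lies right of 0 in all 3 genotypes, and Tpx2 in wt and MK2/3-/-.

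Of the 7 kinesin motors, 6 were lower in each genotype, and Kif4 was the exception. Kif23 (MKLP1, NM_024245), the motor of centralspindlin, which organises the spindle midzone, read 10.08, 9.53, 9.54 and 9.98 in wt medium and 6.78, 4.17 and 6.07 with LPS. It read 11.53, 9.40, 10.03 and 8.78 against 4.92, 4.58, 4.10 and 2.97 in MK2-/-, and 8.91, 10.07 and 10.06 against 1.99, 4.19, 2.97 and 5.49 in MK2/3-/-. It was low on all LPS arrays, with differences of -4.11 in wt (SE 0.76, adjusted p = 0.000232), -5.79 in MK2-/- (SE 0.70, adjusted p = 1.29e-06) and -6.02 in MK2/3-/- (SE 0.76, adjusted p = 2.05e-06). With LPS, Kif23 was well above background on 2 of 3 wt, 3 of 4 MK2-/- and 1 of 4 MK2/3-/- arrays. Kif4 (NM_008446), a chromosome-bound motor that shapes chromosome arms and the midzone, read 8.69, 8.42, 8.03 and 9.03 in wt medium and 7.75, 7.83 and 8.61 with LPS. It read 9.94, 7.49, 8.69 and 7.27 against 8.88, 7.42, 7.70 and 7.93 in MK2-/-, and 6.89, 7.93 and 8.69 against 9.78, 8.67, 8.59 and 9.11 in MK2/3-/-. The treatments overlapped in all 3 genotypes, and the differences were -0.48 in wt (SE 0.55, adjusted p = 0.525), -0.36 in MK2-/- (SE 0.51, adjusted p = 0.608) and 1.20 in MK2/3-/- (SE 0.55, adjusted p = 0.0810). Kif11 (Eg5), which pushes the spindle poles apart, differed by -3.12, -5.17 and -4.71, and Kif15, which shares that task, by -2.33, -3.78 and -4.20. Kif2c (MCAK), which depolymerises microtubules at centromeres, differed by -3.17, -4.43 and -3.86. Kif20a, needed for cytokinesis, and Kif22, a motor that binds chromosome arms, differed by -2.68, -4.27 and -3.86 and by -3.64, -5.26 and -5.13.

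Among 8 spindle microtubule proteins, 6 were lower in each genotype, and Tpx2 went the other way. Aspm (NM_009791), which acts at the spindle poles, read 10.00, 9.88, 9.61 and 9.73 in wt medium and 6.34, 4.21 and 5.10 with LPS. In MK2-/- it read 11.87, 9.23, 9.72 and 8.56 against 3.07, 3.71, 2.00 and 4.45, and in MK2/3-/- 8.30, 9.83 and 9.96 against 2.30, 3.78, 2.73 and 4.69. The LPS arrays lay at least 3 log2 units below the medium arrays everywhere. Aspm fell by 4.59 in wt (SE 0.74, adjusted p = 5.28e-05) and by 5.99 in MK2/3-/- (SE 0.74, adjusted p = 1.48e-06), and was at least 67.7-fold lower in MK2-/- (adjusted p = 1.81e-07), where no LPS array was well above background. With LPS, 2 of 3 wt arrays and 1 of 4 MK2/3-/- arrays were well above background. Tpx2 (NM_028109), which activates Aurora A on the spindle, read 10.48, 9.80, 9.92 and 10.67 in wt medium and 11.57, 11.56 and 11.31 with LPS. It read 11.52, 10.13, 10.29 and 8.97 against 11.22, 11.17, 10.86 and 11.37 in MK2-/-, and 9.10, 9.83 and 10.07 against 12.44, 12.31, 11.79 and 11.60 in MK2/3-/-. LPS arrays were the high ones in wt and MK2/3-/-, and in MK2-/- medium replicate 1 stood above all LPS arrays. The differences were 1.27 in wt (SE 0.41, adjusted p = 0.0175), 0.93 in MK2-/- (SE 0.38, adjusted p = 0.0538) and 2.37 in MK2/3-/- (SE 0.41, adjusted p = 7.75e-05). A second Tpx2 probe, annotated to NM_001141977, gave -0.03, 0.24 and 0.56 and passed in no genotype.

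Ckap2l (NM_181589), a protein of the spindle and its poles, read 9.20, 8.90, 8.90 and 9.51 in wt medium and 7.51, 7.08 and 8.25 with LPS. It read 10.62, 8.19, 9.35 and 8.01 against 9.63, 7.21, 7.75 and 6.78 in MK2-/-, and 7.45, 8.47 and 9.12 against 6.36, 6.04, 7.31 and 8.28 in MK2/3-/-. The treatments overlapped in both knockouts and not in wt, and no difference passed, at -1.51 in wt (SE 0.68, adjusted p = 0.0841), -1.20 in MK2-/- (SE 0.63, adjusted p = 0.136) and -1.35 in MK2/3-/- (SE 0.68, adjusted p = 0.114). The other 5 were lower in all 3 genotypes. Prc1, which bundles midzone microtubules, differed by -2.80, -4.15 and -3.70, Dlgap5 (HURP), which stabilises kinetochore fibres, by -2.22, -3.56 and -2.99, and Nusap1, which links microtubules to chromosomes, by -2.06, -3.07 and -2.99. Hmmr (RHAMM), a spindle and centrosome protein, differed by -1.79, -2.64 and -1.92, and Stmn1 (stathmin), which destabilises microtubules, by -1.47, -1.77 and -1.55. For Stmn1 a second probe gave -1.30, -1.83 and -1.15 and passed in MK2-/- alone (adjusted p = 0.0745, 0.00754 and 0.106).

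All 3 cytokinesis genes were lower in each genotype. Ect2 (NM_007900), the exchange factor that activates RhoA at the cell equator, read 10.09, 9.91, 9.35 and 10.18 in wt medium and 7.70, 6.96 and 7.28 with LPS. It read 11.44, 9.71, 10.01 and 9.07 against 7.02, 5.61, 6.30 and 6.18 in MK2-/-, and 9.30, 9.94 and 9.96 against 5.58, 5.47, 6.16 and 7.38 in MK2/3-/-. No LPS array overlapped a medium array, and the differences were -2.56 in wt (SE 0.49, adjusted p = 0.000318), -3.78 in MK2-/- (SE 0.45, adjusted p = 1.12e-06) and -3.59 in MK2/3-/- (SE 0.49, adjusted p = 5.44e-06). Anln (anillin, NM_028390), which ties the contractile ring to the membrane, read 12.22, 11.19, 11.27 and 12.29 in wt medium and 9.92, 7.50 and 8.50 with LPS. It read 12.86, 10.71, 11.80 and 10.61 against 5.52, 3.93, 6.01 and 6.69 in MK2-/-, and 10.37, 10.95 and 11.95 against 3.08, 4.09, 6.09 and 8.08 in MK2/3-/-. The treatments did not overlap, the MK2/3-/- LPS arrays were spread widely, and the differences were -3.10 in wt (SE 0.93, adjusted p = 0.0118), -5.96 in MK2-/- (SE 0.87, adjusted p = 1.17e-05) and -5.75 in MK2/3-/- (SE 0.93, adjusted p = 4.12e-05). Racgap1, the partner of KIF23 in centralspindlin, was lower, at -1.94, -3.45 and -1.92.

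Of the 7 genes of condensin and chromosome structure, all were lower in wt and 6 in each knockout. Mki67 (Ki-67, NM_001081117), the coat protein of mitotic chromosomes used to mark dividing cells, read 13.85, 13.36, 12.99 and 13.59 in wt medium and 12.37, 11.90 and 12.24 with LPS. It read 14.95, 13.08, 13.32 and 12.17 against 12.60, 12.83, 12.39 and 12.40 in MK2-/-, and 12.18, 13.28 and 13.80 against 12.03, 11.41, 11.76 and 11.94 in MK2/3-/-. The treatments were apart in wt and MK2/3-/- and overlapped in MK2-/-, and the differences were -1.28 in wt (SE 0.45, adjusted p = 0.0300), -0.82 in MK2-/- (SE 0.42, adjusted p = 0.125) and -1.30 in MK2/3-/- (SE 0.45, adjusted p = 0.0236). With scaling to the 75th percentile it passed in no genotype, at -0.82 in wt (adjusted p = 0.112) and -0.96 in MK2/3-/- (adjusted p = 0.0618). A second Mki67 probe gave -1.06, -0.67 and -1.20 and passed in no genotype (adjusted p = 0.0973, 0.260 and 0.0540), so that the call depends on the probe. Top2a (topoisomerase II alpha, NM_011623), which untangles sister chromatids, read 10.95, 10.65, 10.89 and 11.37 in wt medium and 8.90, 8.36 and 9.71 with LPS. It read 12.48, 10.85, 11.51 and 9.92 against 8.63, 6.39, 7.93 and 7.46 in MK2-/-, and 9.63, 10.36 and 11.33 against 6.03, 6.01, 7.36 and 8.38 in MK2/3-/-. All LPS arrays were below the medium arrays of their genotype, with differences of -1.97 in wt (SE 0.64, adjusted p = 0.0182), -3.59 in MK2-/- (SE 0.59, adjusted p = 5.11e-05) and -3.50 in MK2/3-/- (SE 0.64, adjusted p = 0.000147).

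Ncapg (NM_019438), a subunit of condensin I, read 6.43, 6.06, 6.16 and 6.79 in wt medium and 4.40, 4.01 and 3.89 with LPS. It read 7.36, 5.92, 6.83 and 5.95 against 5.90, 5.84, 4.46 and 5.65 in MK2-/-, and 6.06, 6.18 and 6.44 against 5.55, 5.53, 6.36 and 6.17 in MK2/3-/-. The treatments were apart in wt and MK2-/- and overlapped in MK2/3-/-, with differences of -2.26 in wt (SE 0.37, adjusted p = 6.1e-05), -1.05 in MK2-/- (SE 0.34, adjusted p = 0.0158) and -0.33 in MK2/3-/- (SE 0.37, adjusted p = 0.504). With scaling to the 75th percentile the MK2-/- difference was -0.69 (adjusted p = 0.0585). On wt LPS arrays, 1 of 3 was well above background. Ncapd2 and Ncaph, further subunits of condensin I, were lower in all 3 genotypes, at -2.19, -4.19 and -3.26 and at -2.99, -3.81 and -3.29. So were Smc2 and Smc4, the ATPases that both condensins share, at -1.40, -1.70 and -1.74 and at -1.74, -1.08 and -1.71. Besides the probe that stood for each gene, the array held 20 other probes of 16 of the 60 genes, those given above included, of which 19 had the sign of the first probe in each genotype, 13, 14 and 13 were called lower and 1 was called higher.

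Comparing genotypes under LPS, MK2-/- BMDM had 5 of the 60 genes lower than wt and 1 higher, with a median of -1.05, where 7.06% of all genes were lower and 4.52% higher. The lower ones were the kinases Nek2 and Ttk, the checkpoint gene Bub1b, the spindle gene Dlgap5 and the cytokinesis gene Anln, and the higher one was Ncapg. MK2/3-/- BMDM had 21 lower than wt and 1 higher, again Ncapg, with a median of -1.25, where 14.0% of all genes were lower and 9.61% higher. Between MK2/3-/- and MK2-/- under LPS no gene of the 60 passed, where 5.80% of all genes were lower and 7.74% higher, and the median was -0.17. At an unadjusted p below 0.05 in limma there were 3 of the 60 and 6341 of all 22384 genes. With scaling to the 75th percentile, 63.7%, 57.3% and 68.6% of the called genes were higher in these 3 comparisons, against 39.0%, 40.7% and 57.1% with quantile normalisation. Under that scaling 3 and 11 of the 60 were lower than wt in MK2-/- and MK2/3-/-, and 1725 and 3502 of all 22384 genes.

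Ttk under LPS read 4.03, 3.73 and 4.58 in wt, 2.03, 2.01, 3.00 and 2.03 in MK2-/- and 2.29, 2.02, 2.01 and 2.76 in MK2/3-/-. Both knockouts were low without overlap with wt, Ttk differed from wt by -1.85 in MK2-/- (adjusted p = 0.0327), and it was at least 1.34-fold lower in MK2/3-/- (adjusted p = 0.0175). In MK2-/- only 1 of the 4 readings was well above background. Dlgap5 read 6.26, 5.92 and 7.04 in wt, 5.77, 4.47, 4.52 and 3.89 in MK2-/- and 4.63, 3.99, 5.59 and 5.40 in MK2/3-/-. The wt arrays were the highest, with differences of -1.75 and -1.51 (adjusted p = 0.0421 and 0.0482). From the readings given above, Bub1b differed from wt by -2.10 in MK2-/- and by -2.30 in MK2/3-/- (adjusted p = 0.0217 and 0.00585), and Anln by -3.10 and -3.30 (adjusted p = 0.0399 and 0.0161). Of 4 LPS arrays, Bub1b was well above background on 2 in MK2-/- and 1 in MK2/3-/-, and Anln on 3 and 2. Nek2 was at least 2.87-fold lower in MK2-/- and at least 2.53-fold lower in MK2/3-/- (adjusted p = 0.0144 and 0.00614). Ncapg was higher by 1.36 and by 1.80 (adjusted p = 0.0249 and 0.00207). The other genes lower in MK2/3-/- than in wt were Bub1, at -3.57, Pbk at -2.81, Kif15 at -2.31, Kif22 at -2.23, Nuf2 at -2.20 and Top2a at -2.05, followed by Kif11, Kif20a, Cenpa, Ccnf, Plk1, Sgol1, Ccna2, Melk, Cdca8 and Ndc80 with -1.99 to -1.48.

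These counts rested on few arrays. Without wt LPS replicate 1, 0 genes in place of 5 were lower in MK2-/- and 5 in place of 21 in MK2/3-/-, and without wt LPS replicate 3 the numbers were also 0 and 5. For MK2-/- against wt, 1 was lower without MK2-/- LPS replicate 2, 3 without MK2-/- LPS replicate 4 and 8 without MK2/3-/- LPS replicate 4. For MK2/3-/- against wt, 6 were lower without MK2/3-/- LPS replicate 1 and 8 without MK2/3-/- LPS replicate 2. Ncapg lost its call in MK2-/- against wt without wt LPS replicate 2 or 3, or MK2-/- LPS replicate 1, 2 or 4. Without the 2 MK2-/- arrays of low Y-linked signal, 3 in place of 5 were lower in MK2-/-. Among LPS arrays of wt and MK2/3-/-, the summed signal of fibroblast and stromal markers moved with the median of the 60 genes. The arrays with less summed signal had the lower medians within each genotype. Col1a1 and Col1a2 followed the same order, while Pdgfrb and Dcn did not. Dcn read 3.59 on wt LPS replicate 1 and 8.11 on replicate 2, and 8.56 on MK2/3-/- LPS replicate 1 and 6.33 on replicate 4. The correlation of the summed signal with the median was 0.807 over all LPS arrays and 0.234 over all medium arrays. On LPS arrays it was -0.616 for the T cell list and -0.629 for the erythroid list. In MK2-/- LPS replicate 4 had the most marker signal and the second lowest median. The log2 summed signal of the 5 tested markers of 6, of which 4 were well above background on all arrays, ran from 13.5 to 15.9 in wt LPS, from 11.6 to 14.2 in MK2-/- LPS and from 10.8 to 14.9 in MK2/3-/- LPS. It was 15.9 on wt LPS replicate 1, where Col1a1 read 13.6 and Col1a2 read 15.5. Its part in the difference between genotypes was not tested.

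**Figure D5:**
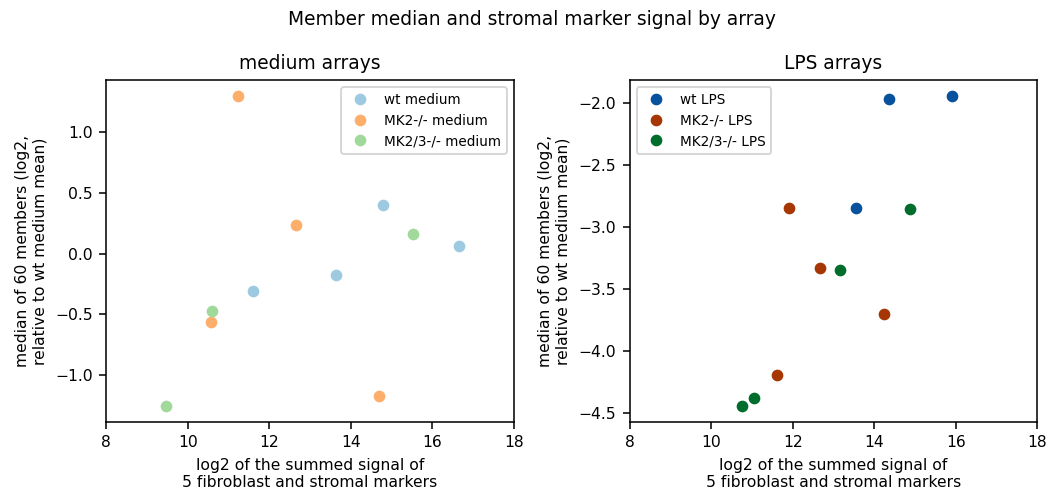
Median of the 60 genes on each array (y axis, log2 relative to the mean in wt medium) against the log2 summed signal of 5 fibroblast and stromal markers (x axis) for the 11 medium arrays (left) and the 11 LPS arrays (right), coloured by genotype. On LPS arrays the highest medians, -1.94 and -1.96 in wt, go with marker signals of 15.9 and 14.4, and the lowest, -4.45 and -4.38 in MK2/3-/-, with 10.8 and 11.0.

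In medium the genotypes differed for Aurkb. MK2-/- BMDM had 1 of the 60 genes lower than wt and none higher at an adjusted p below 0.05 in limma, where 3.11% of all genes were lower and 5.70% higher. At an unadjusted p below 0.05 there were 2 of the 60 and 5798 of all 22384 genes. Aurkb was at least 4.06-fold lower in MK2-/- than in wt medium (adjusted p = 0.000323), and MK2/3-/- medium was at least 2.26-fold above MK2-/- medium (adjusted p = 0.00316), where 2.00% of all genes were higher and 0.826% lower. Between MK2/3-/- and wt in medium no gene of the 60 passed, where 0.523% of all genes were lower and 1.50% higher. Here 2 of the 60 and 3784 of all genes had an unadjusted p below 0.05. The medians were -0.06 for MK2-/- against wt, -0.51 for MK2/3-/- against wt and -0.52 for MK2/3-/- against MK2-/-. With scaling to the 75th percentile, 84.0%, 90.1% and 89.5% of the called genes were higher in MK2-/- against wt, MK2/3-/- against wt and MK2/3-/- against MK2-/-, in place of 64.7%, 74.1% and 70.7%.

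Whether the response to LPS itself differed between genotypes was tested as the difference of the differences, in which an additive effect of slide cancels. No gene of the 60 passed in any of the 3 comparisons. At an unadjusted p below 0.05 in limma there were 9 for MK2-/- minus wt, 5 for MK2/3-/- minus wt and 4 for MK2/3-/- minus MK2-/-. Of all 22384 genes, 1685, 2545 and 1926 had an unadjusted p below 0.05 in these comparisons. The lowest adjusted p among the 60 were 0.127 for Aurkb, 0.0853 for Ncapg and 0.180. As Aurkb was at background on all MK2-/- arrays, its difference of response reflects its fall in wt and measures no response in MK2-/-. The median difference over the 60 was -1.13, -0.74 and 0.21, against -0.08, -0.04 and 0.003 over all genes. Of the 60, 51, 45 and 19 were negative. The 60 genes varied together, so that these are not counts of independent genes. Of all genes, 0% were called in either direction for MK2-/- minus wt, 0.572% lower and 0.107% higher for MK2/3-/- minus wt, and 0.0357% lower and 0.0313% higher for MK2/3-/- minus MK2-/-. The standard error of a gene's difference was 0.77 to 0.80 at the median over the 60. That is about the size of the median difference for MK2/3-/- minus wt, below that for MK2-/- minus wt and above that for MK2/3-/- minus MK2-/-.

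Other genes of mitosis that the list does not hold were also more often lower than higher with LPS. Of 56 further mitotic genes tested, 31 were lower and 0 higher in wt, 42 and 2 in MK2-/-, and 41 and 1 in MK2/3-/-, with medians of -1.77, -2.68 and -2.24. Over all genes, 23.5%, 27.1% and 27.9% were lower in the 3 genotypes and 18.6%, 17.5% and 20.2% higher. The 4 with the largest t in wt were Cdca5 (sororin), which protects cohesin, Ncapd3 of condensin II, the kinesin Kif18b and Depdc1b, with -3.48, -2.55, -3.06 and -2.88. Of 13 core genes of APC/C, 7, 10 and 9 were lower and none was higher in the 3 genotypes, with medians of -0.56, -0.66 and -0.71, and Anapc11, Anapc13, Anapc4 and Anapc7 differed by -1.18, -0.99, -0.63 and -0.56 in wt. Of 9 cohesin genes, 4, 5 and 5 were lower and 2, 2 and 1 higher, with Smc3 at -1.89, Smc1a at -0.71, Stag2 at 0.52 and Wapal, which releases cohesin from chromatin, at 0.73 in wt.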

How the data were processed

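Total RNA of 22 samples was measured on 1-colour Agilent mouse arrays (62976 spots, of which 3671 were controls), scanned and extracted by the authors with Agilent Feature Extraction 11.0.1.1. The deposited intensity is the processed signal, corrected for background and spatial trend by that program and not scaled between arrays. The authors' deposited value table holds log2 values, quantile normalised over all samples and centred on each probe's median, and served as an alternative.

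Here, log2 processed signals were quantile normalised over the 22 arrays, outlier spots (115 to 2927 an array, the most on MK2-/- LPS replicate 3) were left out, and spots of a probe were averaged. No spot was saturated. Of 29150 probes with a RefSeq accession, 27509 were named through the RefSeq genes (assembly GRCm38.p6, used for names and promoters; the array was annotated on mm9). With 3735 more probes of GenBank accessions, a probe was kept if 3 or more of the 22 arrays read well above background, and the probe of highest mean signal stood for a gene, which gave 22384 genes. Group means of all 6 groups were fitted with limma 3.58.1 (R 4.3.3, with data.table, version 1.17.8), with two-sided moderated tests and Benjamini-Hochberg adjustment over all genes. A probe dim on every array of a group has only a bound, as given at Nek2. The number of arrays limits the precision.

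The 60 genes, the other lists and the tests were chosen with earlier results of these data known. Readings of every array are given for the genes with the largest and the smallest absolute t in wt of each role, for Mki67, Top2a, Foxm1 and Cdk1, and for Tpx2, which went against most of its list. Ttk and Dlgap5 were added after their values were seen. Of other lists, up to 4 genes with the largest t in wt are named, plus Cdkn1a, Ccnd1, Csf1r, Mybl2, E2f1 and E2f4.

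The fit was tested on simulated data of the LPS comparison in wt over 22384 genes with 50 changed genes of each size. It recovered 96% of genes changed by -3, 60% at -1.5, 46% at 1.5 and 86% at 3, with 5.26% of its calls false. The simulated noise was independent between genes, whereas the 60 genes varied together, so that these shares do not carry over to counts of the 60. Alternatives were 75th percentile scaling, normexp background correction (offset 50) on median signals, since no mean signal column was present, the authors' table, no filter, other probe choices, the groups compared alone, array weights, the methods' t-test with Benjamini-Hochberg adjustment, replicate blocks, a 2-fold minimum and leaving out each array. Leaving out both MK2-/- replicate 3 arrays was added after seeing the data.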

Additional observations from a re-analysis of the deposited data

Results flagged for a closer look

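In groups of 4 arrays, 96 sets of readings of the genes given array by array were tested for 1 array far from the others, and 4 stood apart. Chance alone marks about 1 in 20 groups. Pttg1 read 12.5 on MK2-/- medium replicate 2, below the 13.1 to 13.2 of the other 3 arrays of that group. Aurkb read 2.49 on MK2-/- medium replicate 3, above 1.99 to 2.03 on the others, all below the detection limit. Nek2 read 3.28 on MK2-/- LPS replicate 1 against 2.01 to 2.03, and 3.44 on MK2/3-/- LPS replicate 4 against 1.99 to 2.02, where no array was well above background.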

How the results depend on the processing

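The authors' table, no filter on dim probes and a 2-fold minimum changed no count of the 60 genes by over 1.5 times. The mean of all probes left 1 higher with LPS in wt. In MK2-/- with LPS 2 were higher under 75th percentile scaling, normexp and array weights. The median under normexp was -2.73 in MK2-/- and -2.34 in MK2/3-/-. Under LPS, MK2-/- against wt had 0 higher under normexp, the groups compared alone and the t-test, and 2 with the probe of highest induction and array weights. It had 3 lower under 75th percentile scaling, 2 under normexp, 11 with array weights, 1 with the t-test and 3 without both MK2-/- replicate 3 arrays. MK2/3-/- against wt had 0 higher with the t-test, and 11 lower under 75th percentile scaling, 6 under normexp, 3 with the groups alone and 0 with the t-test. Of all 22384 genes, 1725 and 3502 were lower for MK2-/- and MK2/3-/- against wt under 75th percentile scaling, and 1540 and 3039 under normexp. In medium, MK2-/- against wt had 2 lower under 75th percentile scaling, and MK2/3-/- against MK2-/- had 0 higher under normexp, the groups alone and the t-test. For the difference of response, MK2-/- minus wt had 1 higher with the groups alone, array weights and the t-test (Aurkb, at background on all MK2-/- arrays, so that no response was measured there), and MK2/3-/- minus wt had 1 (Ncapg) with array weights. The cause was not tested.

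Leaving out 1 array gave 1 to 2 higher with LPS in wt and in MK2-/-, and 36 to 53, 46 to 53 and 45 to 51 lower in wt, MK2-/- and MK2/3-/-. Under LPS it gave 0 to 1 higher and 0 to 8 lower for MK2-/- against wt, and 5 to 28 lower for MK2/3-/- against wt. In medium it gave 1 to 2 lower for MK2-/- against wt. It gave 0 to 1 higher for MK2-/- minus wt and for MK2/3-/- minus wt, and 0 to 1 lower for MK2/3-/- minus MK2-/-.

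Correlation did not settle whether samples of the same number, or of the same letter, pair, since 7 of 10 pairs correlated above 0.1 and the lowest correlation was -0.0859. Donor age was the same in medium and with LPS for each genotype and letter. By number it differed for wt replicate 3, with 13 weeks in medium and 12 with LPS. It also differed for MK2/3-/- replicate 3, with 12 weeks in medium and 14 with LPS. Both MK2-/- arrays of letter c had the low Y-linked signal. In wt the log2 summed stromal marker signal was 16.7 in medium and 15.9 with LPS for letter a, 13.6 and 13.5 for letter c, and 14.8 and 14.4 for letter e. In MK2-/- it was 11.2 and 11.9 for a, 10.6 and 11.6 for b, 12.7 and 12.7 for c, and 14.7 and 14.2 for e. In MK2/3-/- it was 9.47 and 10.8 for a, 10.6 and 11.0 for b, and 15.5 and 14.9 for e. The main fit used no pairing. A replicate block by number or by letter gave 2 higher in MK2-/- with LPS in place of 1 and changed no other count by over 1.5 times. For the difference of response, Birc5 turned to -0.0364 by number and -0.00711 by letter (MK2/3-/- minus MK2-/-), and Plk4 to 0.0180 by letter (MK2-/- minus wt).

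Signs turned for values that had not passed the test, except for Cdk1. With LPS, Aurkb in MK2-/- was 0.28 under 75th percentile scaling and 0.00778 without both replicate 3 arrays, and Ncapg in MK2/3-/- was 0.0155 under that scaling. With the probe of highest induction, Cdk1 was 0.39 in MK2-/- and 0.63 in MK2/3-/-, and its differences of response were 1.08 (MK2-/- minus wt), 1.32 (MK2/3-/- minus wt) and 0.24 (MK2/3-/- minus MK2-/-). For MK2/3-/- minus wt, Nek2 was 0.12 under normexp, Ube2c -0.30 with the mean of probes and Ckap2l -0.40 with array weights. For MK2/3-/- minus MK2-/-, array weights gave -0.74 for Ccnb2, 0.0224 for Pttg1, -0.77 for Birc5, -0.24 for Ect2, -0.27 for Anln and -0.50 for Top2a. Pttg1 was 0.13 with the mean of probes and 0.39 with the probe of highest induction, Spc24 was 0.16, 0.19 and 0.0102 under 75th percentile scaling, normexp and the authors' table, Kif23 was 0.21 under normexp, and Ckap2l 0.0442 under 75th percentile scaling.

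Leaving out 1 array also turned signs. For MK2/3-/- minus MK2-/- the ranges were -0.40 to 0.80 for Ccnb2, -0.54 to 0.0127 for Plk4, -0.21 to 0.0484 for Pttg1, -0.57 to 0.59 for Birc5, -0.54 to 0.64 for Spc24, -0.83 to 0.33 for Kif23, -0.13 to 0.97 for Aspm, -0.68 to 0.45 for Ckap2l, -0.27 to 0.52 for Ect2, -0.71 to 0.96 for Anln, -0.39 to 0.54 for Top2a and -1.07 to 0.18 for Cdk1. For MK2/3-/- minus wt they were -0.64 to 0.0643 for Plk4, -0.0897 to 1.46 for Aurkb, -0.66 to 0.0769 for Spc25, -0.29 to 0.55 for Ckap2l and -0.48 to 0.33 for Mki67. For MK2-/- minus wt they were -0.35 to 0.36 for Plk4, -0.95 to 0.14 for Ube2c, -0.24 to 0.65 for Kif4 and -0.28 to 0.84 for Ckap2l. With LPS they were -0.59 to 0.11 for Plk4 in wt, -0.53 to 0.0103 for Plk4 and -0.72 to 0.17 for Kif4 in MK2-/-.

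Signal near background limited most Aurkb, Cenpf and Nek2, Ttk in MK2/3-/- and Aspm in MK2-/-. Other genes were dim on part of their LPS arrays, so that their differences rest partly on readings near background. All LPS arrays were well above background for 50 of the 60 genes in wt, 45 in MK2-/- and 42 in MK2/3-/-. Of 4 LPS arrays, 2 were so in MK2-/- and 1 in MK2/3-/- for Bub1b and Kif11, and 2 in each for Bub1. Only 1 of 4 was so in MK2/3-/- for Kif23 and Aspm, and in MK2-/- for Kif2c, Cdc25c and Ttk. Of the readings of the 60 genes, 0.417% were not well above background in wt medium and 18.3% in MK2/3-/- with LPS.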

Other observations

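Genes that act before mitosis moved in both directions with LPS. Over all genes tested, 23.5%, 27.1% and 27.9% were lower in wt, MK2-/- and MK2/3-/-, and 18.6%, 17.5% and 20.2% were higher, and some of the counts below lie near these shares. Of 18 E2F, RB and DREAM factors, 8 were lower and 3 higher in wt, 10 and 3 in MK2-/-, and 9 and 1 in MK2/3-/-. E2f2, an activator of S phase genes, fell by 5.82, 5.94 and 5.49 in wt, MK2-/- and MK2/3-/-, and E2f6, a repressor, by 2.93, 3.13 and 3.52. Rbl1 (p107), a pocket protein of DREAM, rose by 1.79, 1.73 and 2.35, and Rb1 fell by 1.23, 1.67 and 1.80. E2f1 differed by -1.04, -2.29 and -1.69 and passed in both knockouts (limma, adjusted p = 0.150, 0.00118 and 0.0178). E2f4 passed in no genotype, at 0.22, 0.52 and 0.37, nor did Mybl2 (B-MYB), at -0.55, -0.45 and -0.29.

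Of 12 CDK inhibitors and p53 targets, 2, 2 and 3 were lower and 6, 5 and 5 higher in wt, MK2-/- and MK2/3-/-. Cdkn1a (p21), an inhibitor of cyclin-dependent kinases, rose by 3.41, 2.85 and 3.75. Cdkn2c (p18), another inhibitor, differed by -3.53, -4.16 and -4.67. The p53 targets Gadd45a and Mdm2 differed by 2.52, 3.25 and 2.07 and by 1.29, 0.92 and 1.28. Of 10 G1 cyclins and kinases, 4, 3 and 4 were lower and 2, 3 and 2 higher. Ccnd2 (cyclin D2) rose by 5.38, 7.77 and 7.72, while Ccnd1 passed in no genotype, at -0.09, 0.59 and 0.57. The kinases Cdk2 and Cdk4 differed by -1.57, -2.77 and -2.07 and by -0.85, -1.61 and -1.42. Ccne2 (cyclin E2) differed by -2.63 in wt and by -1.28 in MK2/3-/-, while its difference in MK2-/- rounded to 0 (adjusted p = 1.000). Of 20 DNA replication genes, 9, 13 and 14 were lower and 1 in each genotype was higher. Tyms (thymidylate synthase) rose by 2.86, 1.81 and 2.43, while Gmnn (geminin), an inhibitor of replication licensing, differed by -4.15, -4.78 and -5.20. The licensing factor Cdt1 differed by -1.63, -1.52 and -1.08, and Rrm2, a subunit of ribonucleotide reductase, by -3.02, -5.17 and -4.42.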
